A study of Mus musculus with 2 samples.

Results

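The shortest spliced transcripts that GENCODE annotates in the mouse were examined in long-read RNA sequencing of hippocampus. A transcript was taken if the deposited tables class it as known, if it has at least 2 exons, if it is shorter than 600 bases and if at least 1 read fell on it in either library. These conditions gave 1791 transcript models of 1466 genes, among 22314 annotated spliced models and 24612 annotated models of any kind with reads. Length and exon number come from the annotation, so no measured level beyond that single read chose them. The study has 1 group of 2 libraries, replicate 1 and replicate 2, of total RNA from C57BL/6 mice (strain B6NCrl), adults of 6 months described as male, and no treatment or mutant allele is labelled. The libraries have separate biosamples and a shared donor identifier, and the labels do not say whether 2 animals were used. Every comparison is therefore between the 2 libraries. The p-values of Fisher's exact test weigh a difference against counting error alone. Those of edgeR's exact test also use the spread between the libraries, which may be technical.

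Short mRNAs belong mostly to small proteins. Subunits of the cytosolic ribosome, small subunits of the respiratory chain and ATP synthase, and metallothioneins, which bind zinc and copper through cysteines, are well known examples. Neurons have a high demand for ATP, most of it met by oxidative phosphorylation, in which electrons pass through a chain of complexes to oxygen and the resulting proton gradient drives ATP synthase. In long-read sequencing a read follows 1 transcript molecule, so a level is a count of reads and is not divided by length.

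How little of such an mRNA can be protein is seen in Rpl41, which encodes the smallest protein of the ribosome. Its annotated coding sequence, stop codon included, is 78 of the 582 bases of Rpl41-201. It lies on chromosome 10, within chr10:128548387-128548960 (mm10, minus strand), and is printed as spliced in GENCODE M21 with the codons for lysine and arginine in capitals.
Rpl41-201: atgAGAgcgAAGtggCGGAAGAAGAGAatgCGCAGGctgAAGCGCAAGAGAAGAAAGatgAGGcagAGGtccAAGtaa
Of its 25 amino acid codons, 17 are for lysine or arginine.

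The 3 metallothionein mRNAs are shown because Mt1 and Mt3 differed between the libraries in opposite directions. All lie on the plus strand of chromosome 8, with coding sequences within chr8:94179311-94180193 (Mt1), chr8:94172848-94173427 (Mt2) and chr8:94152800-94154010 (Mt3) of mm10. Capitals mark the cysteine codons.
Mt1-201: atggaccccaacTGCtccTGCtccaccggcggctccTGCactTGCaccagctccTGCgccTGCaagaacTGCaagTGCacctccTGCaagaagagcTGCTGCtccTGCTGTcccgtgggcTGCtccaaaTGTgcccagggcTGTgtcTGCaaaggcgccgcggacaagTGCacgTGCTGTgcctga
Mt2-201: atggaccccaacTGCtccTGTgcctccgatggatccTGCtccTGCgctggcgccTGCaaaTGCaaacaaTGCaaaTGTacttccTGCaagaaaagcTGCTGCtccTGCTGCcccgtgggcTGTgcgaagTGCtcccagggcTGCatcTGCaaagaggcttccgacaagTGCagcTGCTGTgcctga
Mt3-201: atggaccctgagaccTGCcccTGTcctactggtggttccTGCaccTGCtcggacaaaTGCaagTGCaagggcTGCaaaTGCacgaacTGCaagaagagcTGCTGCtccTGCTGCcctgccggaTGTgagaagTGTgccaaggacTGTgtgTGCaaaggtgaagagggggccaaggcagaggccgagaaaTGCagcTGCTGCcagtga
Each holds 20 cysteine codons, among 61 amino acid codons in Mt1 and Mt2 and 68 in Mt3. In a global alignment of the bases, Mt1 and Mt2 were 79.6% identical, Mt3 and Mt1 66.2%, and Mt3 and Mt2 67.6%.

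The ends of abundant short transcripts are shown because most leading short mRNAs carry a polyadenylation hexamer near the 3′ end. Its absence does not mark a fragment model, since 2 complete mRNAs among the 25 most abundant, Atp5l-201 and Elob-201, have neither form of it in their last 50 bases. Each window is 30 bases of the annotated transcript, all within its last 60 bases, with the hexamer (AATAAA or ATTAAA) in capitals.
Cox8a-201 (chr19:7215159-7215188, minus strand): gtaacAATAAAgtctatttaaaccttgctc
Rplp1-201 (chr9:61913284-61913313, minus strand): ttaagttggctAATAAAgagctgaacctgt
Cox6c-201 (chr15:35931978-35932007, minus strand): ctttcAATAAAcagtaattatatggacagt
Dbi-201 (chr1:120113289-120113318, minus strand): aatcaATTAAAagtacatttgttactctgt
Usmg5-201 (chr19:47083468-47083497, minus strand): ctcaatttgtacAATAAAttatgaacctgg
Mt3-201 (chr8:94154117-94154146, plus strand): ggggtgtgAATAAAtcccatgcacaacatg
Cox4i1-204 (chr8:120674084-120674113, plus strand): gacaagaatgagtggaagaagtgagagccc
Cox4i1-204, a retained-intron model described further on, has neither hexamer in its last 50 bases, and its last 30 bases are printed.

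Replicate 1 held 1330153 reads and replicate 2 held 1366252, so that 1 read was worth 0.752 CPM (reads scaled to a library of 1000000) and 0.732 CPM. Neuronal and hippocampal markers, pan-neuronal genes among them, had reads on 16 of 16 genes in both libraries, with sums of 6778 CPM and 8186 CPM. These sums do not separate hippocampal from other neurons. Choroid plexus, the tissue that secretes cerebrospinal fluid, was represented unequally. In replicate 1 its 12 markers summed to 14198 CPM. In replicate 2 they summed to 392 CPM, and Aqp1, Kcne2 and Otx2 were at 0. Markers of meninges summed to 1206 CPM and 2881 CPM, and 5 blood markers to 12.03 CPM and 8.05 CPM. The part of these cells in the differences given below was not tested, except where a value is stated, and in such tissue fewer cells of a type and less RNA per cell cannot be told apart.

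Short transcripts took about 3 in every 100 reads, and a few housekeeping mRNAs supplied most of them. They held 42072 reads in replicate 1 and 41355 reads in replicate 2, which is 3.16% (exact Clopper-Pearson 95% interval 3.13 to 3.19) and 3.03% (2.998 to 3.056) of all reads, or 3.09% ± 0.0962 (mean ± SD, n = 2). Reads fell on 1322 of the models in replicate 1 and on 1336 in replicate 2, with 867 in both. A single read in all supported 712 of the 1791 models. The 10 most abundant held 31.6% of the reads, the 25 most abundant 53.1% and the 100 most abundant 87.5%. By level, 68 models reached 100 CPM, 187 reached 10 CPM, and 940 stayed under 1 CPM. The median model had 486 bases and 3 exons, and weighted by reads the median length was 526 bases in both libraries. In the 10 bases just inside the length limit, 92 models summed to 1414 CPM on average, and in the 10 bases just outside it 117 models summed to 586 CPM.

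Complete protein-coding mRNAs carried these reads, although they were a minority of the models. The 435 models with a complete coding sequence held 89.7% of the reads, with a median coding length of 273 bases. By GENCODE biotype, 662 protein-coding models held 91.2% of the reads, 524 retained-intron models 3.02%, 356 processed transcripts 2.83% and 90 lincRNAs 1.76%. The 275 models annotated with an incomplete end, 227 of them protein-coding, held 1.67%. Among annotated transcripts of 500 to under 600 bases, reads were found for 232 of the 734 with a complete coding sequence, or 31.6%, and for 9.44% of all 8440. Below 200 bases, 5 of 81 with a complete coding sequence had reads, or 6.17%.

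**Figure D1:**
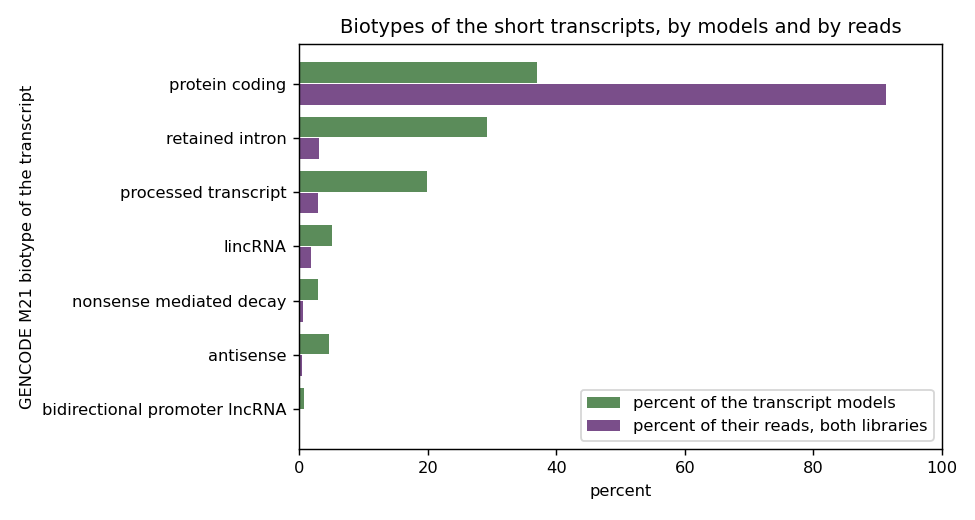
Percent of the 1791 short models (green) and of their reads in both libraries (purple) in each of the 7 biotypes with most reads. Protein-coding models were 37.0% of the models and 91.2% of the reads, while retained-intron models were 29.3% of the models and 3.02% of the reads.

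The most abundant short transcript was Cox8a-201, a subunit of cytochrome c oxidase, the last complex of the respiratory chain. This 550-base mRNA of chr19:7215153-7217616 (minus strand) had 2763 reads in replicate 1 and 2784 in replicate 2, or 2057 ± 27.9 CPM, and took 99.7% of its gene's reads. Rpl41-201 followed with 1603 and 1561 reads, at 1174 ± 44.3 CPM, and Rplp1-201, an acidic protein of the ribosomal stalk, with 1309 and 1586 reads, at 1073 ± 125 CPM. The libraries were close for the first 2 of these and apart for Rplp1-201. Of the 25 most abundant, 11 encode proteins of the ribosome and 8 subunits or regulators of respiratory complexes. The others are Dbi-201, an acyl-CoA-binding protein that also modulates GABA-A receptors, Tmsb10-203, a thymosin that binds actin monomers, Mt3-201 and Mt1-201, Mif-201, a cytokine, and Elob-201, the adaptor elongin B. For 15 of these 25, over 50% of the transcript's 25-base words also occur in transcripts of other genes. The gene sharing the most words was mostly named as a pseudogene or gene model, so reads could be split between near-identical copies. For Rps13-201 the share over all other genes was 88.1%, with the most words in Rps13-ps1, and for Cox8a-201 it was 1.14%.

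**Figure D2:**
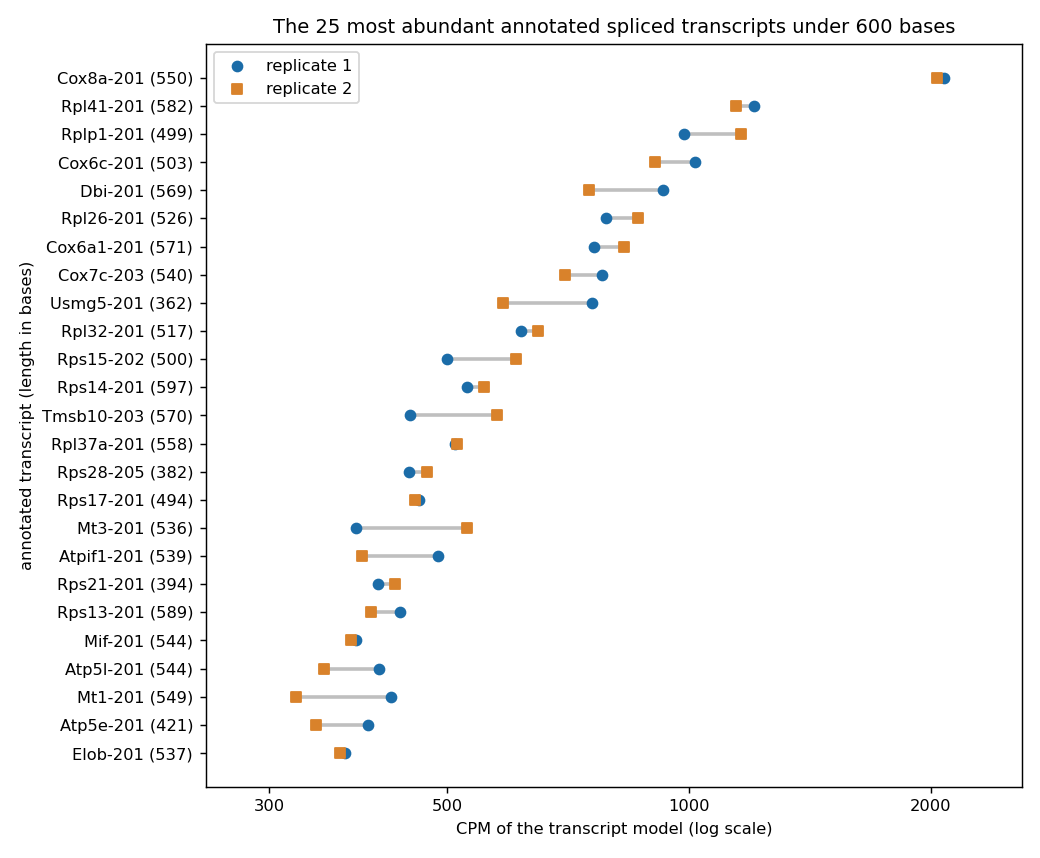
CPM of the 25 most abundant short transcripts in replicate 1 (circles) and replicate 2 (squares), on a log axis, with length in bases in brackets. Cox8a-201 lies near 2000 CPM in both libraries, and the 6 widest gaps are those of Mt3-201 and Tmsb10-203, with the higher level in replicate 2, and Mt1-201, Usmg5-201, Atpif1-201 and Dbi-201, with it in replicate 1.

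Short transcripts of the respiratory chain and ATP synthase had a higher summed level in replicate 1, and 9 single models were called. The 84 short models reached 11192 CPM in replicate 1, against 10036 CPM for replicate 2, a log2 ratio of 0.16 (95% interval 0.12 to 0.19). Of 52 with at least 10 reads, 9 were higher in replicate 1 and 0 were higher in replicate 2 at an adjusted p under 0.05 (Fisher's exact test of each model's reads against the rest of the library, Benjamini-Hochberg over all 9781 annotated models tested). Over all annotated models tested, 5.34% were called, 1.36% with the higher level in replicate 1 and 3.98% with it in replicate 2. At an unadjusted p under 0.05, 15 of the 52 were higher in replicate 1 and 2 in replicate 2. The median log2 ratio of CPM + 1, replicate 1 over replicate 2, was 0.16 for the 52 and -0.12 over all models tested. With TMM library sizes the median of all models moved to 0.00, that of the 52 to 0.29, and 16 of them were called higher in replicate 1. With these sizes 4.59% of all models tested were called, 2.59% with the higher level in replicate 1 and 2.00% with it in replicate 2. The 125 longer models of the same list summed to 23267 CPM in replicate 1, against 23177 CPM for replicate 2, and of 82 tested 7 were called higher in replicate 1 and 5 in replicate 2, with a median log2 ratio of 0.03. The difference between short and longer models of the list was not tested. With edgeR's exact test, which allows for the spread between the libraries, 2 short models were called higher in replicate 1 and 0 in replicate 2. Over all models tested, edgeR's exact test called 0.194% higher in replicate 1 and 0.0307% higher in replicate 2.

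Among complex I subunits, Ndufa1-201, an accessory subunit encoded on the X chromosome, had 403 reads in replicate 1 and 295 in replicate 2, a log2 ratio of 0.49 (adjusted p = 5.0e-04, Fisher's exact test). Ndufs5-201 had 380 and 389 reads, and Ndufa3-201 361 and 332, with adjusted p of 1 and 0.54. In complex III, Uqcrb-201 had 301 reads in replicate 1 and 235 in replicate 2 (log2 ratio 0.39, adjusted p = 0.034, Fisher's exact test), while Uqcr11-201 had 425 and 411. Complex I and complex III thus each held both a called and an uncalled subunit.

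Abundant subunits of cytochrome c oxidase were not called in either direction. Cox6c-201 had 1351 and 1239 reads, Cox7c-203 1037 and 957, and Cox6a1-201 1013 and 1134, with adjusted p between 0.069 and 0.31 (Fisher's exact test). The first 2 had more reads in replicate 1 and Cox6a1-201 more in replicate 2. The muscle and heart paralog of Cox8a stood apart from it. Cox8b-201, of chr7:140898945-140900446 (minus strand), had 38 reads in replicate 1 and 0 in replicate 2. Against the floor of 3 reads in replicate 2 it was at least 13.0-fold higher in replicate 1 (adjusted p = 3.4e-10, Fisher's exact test), and it kept its call with edgeR's exact test (adjusted p = 1.6e-06). It was the short model seen in a single library with most reads.

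The ATP synthase members were higher in replicate 1 where they were called. Usmg5-201, a small subunit also known as DAPIT, had 1007 reads in replicate 1 and 800 in replicate 2, a log2 ratio of 0.37 (95% interval 0.24 to 0.51, adjusted p = 4.7e-06, Fisher's exact test). Atpif1-201, the inhibitor that blocks reverse activity of the enzyme, had 647 and 535 reads (0.31, adjusted p = 0.0071). Atp5g1-202, a form of the membrane ring subunit c, had 270 and 202 reads (0.45, adjusted p = 0.017). Atp5h-208 had 55 and 26 reads (1.08, adjusted p = 0.021), and it shares 84.6% of its words with Gm10250. Atp5l-201 had 547 and 479 reads and Atp5e-201 530 and 468, and both missed the threshold, with adjusted p of 0.14 and 0.18. Usmg5-201 overlaps Taf5, Atpif1-201 overlaps Gm12999 and Atp5l-201 overlaps Gm30934 on the opposite strand, as Rpl32-201 does Cand2 and Elob-201 does Srrm2, and the strand setting of the counts is not given in the sources used here.

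Short transcripts of ribosomal proteins had a similar summed level, and 3 single models were called. The 95 short models reached 10706 CPM in replicate 1, against 11057 CPM for replicate 2, or 10882 ± 248 CPM, a log2 ratio of -0.05 (95% interval -0.08 to -0.01). Of 60 tested, Rps20-201 was higher in replicate 1, and Rplp1-201 and Rps15-202 were higher in replicate 2. The median log2 ratio was -0.03, and it turned to 0.10 with TMM library sizes, where 5 of the 60 were called, all higher in replicate 1, against 2.59% of all models called in that direction. At an unadjusted p under 0.05, 5 of the 60 were higher in replicate 1 and 7 in replicate 2. The 142 longer models of the list summed to 25311 CPM in replicate 1, against 27836 CPM for replicate 2, and of 105 tested 1 was called higher in replicate 1 and 11 in replicate 2. Rplp1-201 had a log2 ratio of -0.24 (95% interval -0.34 to -0.13, adjusted p = 5.2e-04, Fisher's exact test). Rps15-202, a small-subunit protein, had 664 reads in replicate 1 and 831 in replicate 2 (-0.28, adjusted p = 0.0051). With TMM library sizes these 2 lost their calls, at adjusted p of 0.36 and 0.33. Rps20-201, a retained-intron model, had 10 reads in replicate 1 and 0 in replicate 2. Rpl26-201, with 1047 and 1179 reads, Rpl32-201, with 822 and 886, and Rpl37a-201, with 679 and 703, were not called. Of the reads on short transcripts, ribosomal proteins took 33.8% in replicate 1 and 36.5% in replicate 2, and respiratory members took 35.4% and 33.2%.

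Promoters of both groups were compared because their mRNAs dominate the short class. RefSeq promoter sequences (GRCm38.p6, 250 bases before to 50 after the start) were matched by symbol for 90 of 114 genes whose most abundant model is a short transcript, including 18 of 25 ribosomal protein genes and 19 of 24 respiratory genes. The letters CGGAAG, the core bound by ETS-family factors, were present on either strand in 83.3% of the ribosomal protein promoters and 36.8% of the respiratory ones. They were in 36.8% of promoters of 3948 genes led by a longer annotated model and in 17.2% of all 27025 promoters. The letters GCGCANGCG, a form of the motif of nuclear respiratory factor 1, were in 11.1% of the ribosomal protein promoters and 52.6% of the respiratory ones, in 17.2% for genes led by a longer model and 6.47% of all. A CCAAT box was in 16.7%, 47.4%, 40.7% and 37.9% of the same 4 sets, TATAAA in 16.7%, 15.8%, 6.91% and 14.2%, and AAGATGGCG in 11.1%, 5.26%, 4.03% and 1.49%. CGGAAG and GCGCANGCG share no base where both occur in the promoters printed here. Each was searched on both strands. These matches are letters in a window and show no binding. The RefSeq promoters of the genes of 4 abundant members follow, with both motifs in capitals on whichever strand they fall. The RefSeq start of a gene need not be that of its short transcript.
Rpl41 (chr10:128549119-128549418, minus strand): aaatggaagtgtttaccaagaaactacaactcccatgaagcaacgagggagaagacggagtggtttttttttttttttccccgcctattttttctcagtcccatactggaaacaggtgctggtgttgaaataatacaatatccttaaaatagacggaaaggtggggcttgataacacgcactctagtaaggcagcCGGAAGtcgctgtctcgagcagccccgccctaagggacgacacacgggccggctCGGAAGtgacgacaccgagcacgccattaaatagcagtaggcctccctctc
Rpl26 (chr11:68901316-68901615, plus strand): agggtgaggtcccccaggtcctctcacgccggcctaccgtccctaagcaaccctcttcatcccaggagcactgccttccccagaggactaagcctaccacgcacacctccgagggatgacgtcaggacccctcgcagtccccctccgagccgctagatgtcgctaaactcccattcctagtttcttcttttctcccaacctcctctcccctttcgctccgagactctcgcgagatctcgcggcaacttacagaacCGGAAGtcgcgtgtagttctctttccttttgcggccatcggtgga
Cox8a (chr19:7217567-7217866, minus strand): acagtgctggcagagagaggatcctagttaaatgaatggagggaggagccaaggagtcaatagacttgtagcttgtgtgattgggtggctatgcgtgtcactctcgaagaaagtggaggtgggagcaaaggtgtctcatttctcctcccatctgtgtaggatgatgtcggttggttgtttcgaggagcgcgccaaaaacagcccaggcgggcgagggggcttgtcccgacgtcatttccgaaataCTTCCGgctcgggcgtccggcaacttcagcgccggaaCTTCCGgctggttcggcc
Cox6a1 (chr5:115348909-115349208, minus strand): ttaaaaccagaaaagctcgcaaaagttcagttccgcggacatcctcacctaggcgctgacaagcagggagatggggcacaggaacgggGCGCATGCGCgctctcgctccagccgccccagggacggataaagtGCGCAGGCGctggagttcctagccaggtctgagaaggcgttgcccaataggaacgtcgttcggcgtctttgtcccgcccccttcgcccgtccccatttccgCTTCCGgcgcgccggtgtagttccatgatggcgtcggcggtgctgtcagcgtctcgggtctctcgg
Rpl41 and Cox8a each hold CGGAAG 2 times and Rpl26 1 time. Rpl41-201 itself begins at chr10:128549305, inside the window printed for Rpl41, and both copies of CGGAAG there lie downstream of that start. Cox6a1 holds CGGAAG 1 time and GCGCANGCG at 3 positions of either strand, 2 of which overlap.

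Other mitochondrial members were less abundant. The 32 short models of import and assembly factors reached 813 CPM in replicate 1, against 717 CPM for replicate 2, and of 11 tested 2 were higher in replicate 1 and 0 in replicate 2, at a median log2 ratio of 0.12. At an unadjusted p under 0.05 these were 3 and 0, and edgeR's exact test called 0. Over all annotated models tested, Fisher's exact test called 1.36% higher in replicate 1 and 3.98% higher in replicate 2. Timm8b-201, a chaperone of the intermembrane space, had 332 and 327 reads, and Cox17-201, a copper chaperone, had 262 and 218, and neither was called. Cox20-201, a chaperone for the assembly of cytochrome c oxidase, had 121 reads in replicate 1 and 77 in replicate 2, a log2 ratio of 0.68 (adjusted p = 0.024, Fisher's exact test). It overlaps Hnrnpu on the opposite strand. The 30 short models of the mitochondrial ribosome summed to 289 ± 1.27 CPM, 0 of 9 tested were called by Fisher's or edgeR's exact test (0 at an unadjusted Fisher p under 0.05), and Mrps21-201 led them with 151 and 144 reads.

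Mt1 and Mt3 differed between the libraries in opposite directions. Mt3-201, the metallothionein characteristic of brain, had 511 reads in replicate 1 and 723 in replicate 2, a log2 ratio of -0.46 (95% interval -0.63 to -0.30, adjusted p = 2.5e-06, Fisher's exact test). Mt1-201 had 565 and 442 reads, a log2 ratio of 0.39 (0.21 to 0.58, adjusted p = 9.1e-04), and Mt2-201, next to it on chromosome 8, had 180 and 160 (0.21, -0.11 to 0.52, adjusted p = 0.60). Mt3-201 was thus lower and Mt1-201 higher in replicate 1. Both kept their calls with TMM library sizes and neither did with edgeR's exact test, whose adjusted p was 1 for each. Atox1-201, a copper chaperone, had 191 and 176 reads. Over the 10 short models of metal-binding proteins, of which 6 were tested, the sums were 1101 CPM and 1118 CPM.

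Dbi-201 had 1233 reads in replicate 1 and 1026 in replicate 2, a log2 ratio of 0.30 (95% interval 0.18 to 0.42, adjusted p = 4.5e-05, Fisher's exact test). Tmsb10-203 had 597 and 788 reads, a log2 ratio of -0.36 (adjusted p = 2.3e-04), which was no longer called with TMM library sizes (adjusted p = 0.071). It was the 1 called among 3 tested models of small actin and dynein proteins. Neither Dbi-201 nor Tmsb10-203 was called by edgeR's exact test. Over all annotated models tested, Fisher's exact test called 3.98% higher in replicate 2. The lincRNA 2900040C04Rik-201, of chr14:76251457-76252327 (plus strand), had 36 reads in replicate 1 and 1 in replicate 2, a ratio of 37.0, or 4.02 on the log2 scale of CPM + 1 (95% interval of the log2 ratio of CPM 2.64 to 10.6, adjusted p = 2.2e-08). It and Cox8b-201 were at or near 0 in replicate 2, the library in which the 12 choroid plexus markers summed to 392 CPM, against 14198 CPM in replicate 1. The part of choroid plexus RNA in either difference was not tested. The single short model of a choroid plexus marker, Enpp2-205, had 1 read and 0 reads.

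Short mRNAs of neuronal function were few. Npy-201, the precursor of neuropeptide Y, had 119 reads in replicate 1 and 104 in replicate 2 and took 92.5% of its gene's reads. Cck-202, a model annotated with an incomplete end, had 19 and 16 reads. It held 2.18% of the reads of its gene, which encodes the peptide cholecystokinin and is led by the 691-base Cck-201. Gng5-201 and Gng13-201, gamma subunits of G proteins, had 187 and 158 reads and 139 and 168 reads. Of 2 neuropeptide models and 5 vesicle and synapse models tested, 0 were called by Fisher's or edgeR's exact test, and 0 and 1 had an unadjusted Fisher p under 0.05. Ubiquitin and proteasome members, led by Elob-201 with 496 and 502 reads, summed to 670 CPM and 631 CPM, with 0 of 14 called by either test and 0 at an unadjusted p under 0.05. The spliceosome and RNA polymerase models summed to 214 CPM and 177 CPM and those of the secretory pathway to 189 CPM and 168 CPM, with 0 called by either test among 5 and 3 tested, of which 1 and 0 had an unadjusted p under 0.05. Short models of microglia and antigen presentation genes summed to 37.6 CPM and 38.1 CPM, with the 1 tested not called by either test or at an unadjusted p under 0.05. Those of blood summed to 3.76 CPM and 1.46 CPM, and no meninges marker had one.

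The most abundant single model among short spliced noncoding transcripts was Gas5-210, from a host gene of small nucleolar RNAs. Such hosts release guides for RNA modification from their introns. Their 21 short models reached 447 CPM in replicate 1, against 470 CPM for replicate 2, above the 87.5 CPM of the 24 longer models of the list. Gas5-210 had 216 and 260 reads, Gas5-209 87 and 82, and Gas5-224, at 12 exons the most spliced short model, 71 and 67. These 3 took 49.4%, 17.5% and 14.3% of the reads of Gas5. Snhg8-201 had 111 and 123 reads and took 98.3% of its gene. Of 10 tested, 0 were called by Fisher's or edgeR's exact test, and 0 had an unadjusted p under 0.05. Antisense models were scarce, with 203 reads in replicate 1 and 179 in replicate 2 over 82 of them, led by 2310009A05Rik-201 with 38 and 35 reads.

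A short transcript was the most abundant model of 114 of 6262 genes that had at least 20 reads in each library, or 1.82%. In these genes it took a median of 91.7% of the reads. A leading model has the most reads of its gene by definition, so a large share is partly set by that choice. The share was 90% or more in 58 genes and under 50% in 14, down to 12.2%. The 4964 genes led by a longer annotated spliced model had a median of 73.1%. The 114 leading transcripts held 84.6% of all reads on short models. In the same kind of gene the other 1075 short models took a median of 1.22%. Cytosolic ribosome genes contributed 25 of the 114, out of 82 on the list, and respiratory genes 24, out of 84.

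Reads of genes led by a short transcript were nearly all placed on annotated models. In replicate 1, 95.9% of their reads were on known transcripts, 1.84% on incomplete matches and 0.372% in the genomic class. In replicate 2 these were 96.0%, 1.65% and 0.323%. In genes led by a transcript of 4000 bases or more, known transcripts held 58.7% in replicate 1 and 62.6% in replicate 2, incomplete matches 17.8% and 17.7%, and the genomic class 17.8% and 13.6%. The share on known transcripts was lower in each longer class in both libraries.

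**Figure D3:**
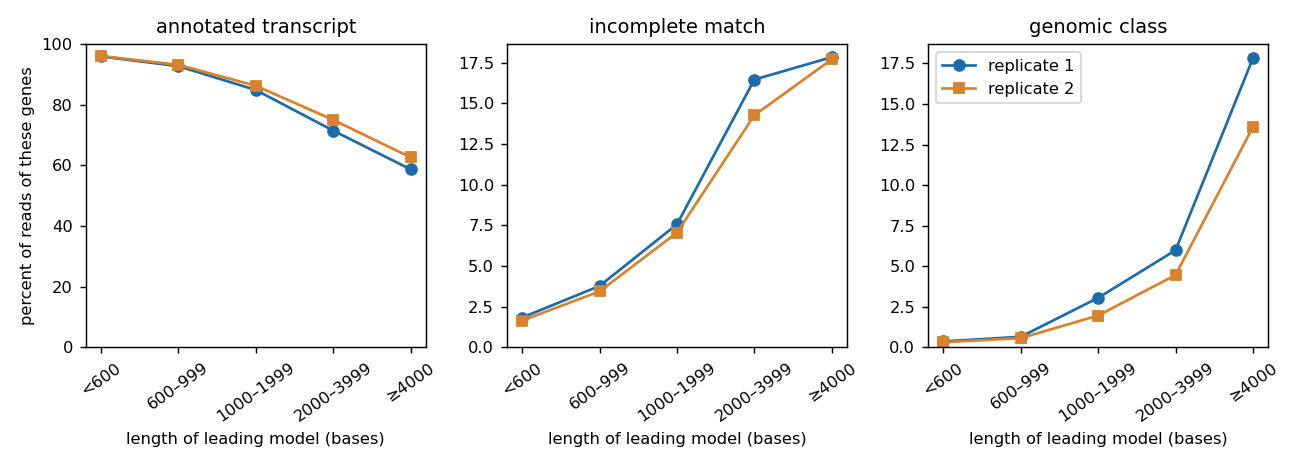
Percent of reads on annotated transcripts, on incomplete matches and in the genomic class, for genes grouped by the length of their leading model, in replicate 1 (circles) and replicate 2 (squares). The class under 600 bases has 95.9% and 96.0% of its reads on annotated transcripts, and the classes of incomplete matches and genomic reads are larger in genes with longer leading models.

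Most short transcripts that led their gene carried a polyadenylation hexamer. AATAAA or ATTAAA stood in the last 50 bases of 83.3% of the 114 leading short transcripts, and of 87.5% of the 96 of them with a complete coding sequence. The share was 35.3% over all 1791 and 5.34% of the 206 annotated with an incomplete 3′ end. Among longer annotated spliced models it was 78.6% for those that led their gene and 66.9% for all with reads. Over all 26567 annotated spliced transcripts under 600 bases, with or without reads, it was 15.6%. Short models with a hexamer held 85.4% of the reads.

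In some abundant genes a short model was a minor product. Fkbp1a-210, from the gene of an FK506-binding prolyl isomerase, had 51 reads in replicate 1 and 43 in replicate 2, or 1.99% of the gene. Rpl22-205, a processed transcript with no annotated coding sequence, instead held 73.3% of its gene, with 119 and 122 reads. Its introns are also those of 2 longer annotated transcripts, so only the ends separate these models.

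As a share of the gene, a ratio that does not depend on the library total, 3 of 304 short models differed between the libraries, all higher in replicate 1 (Fisher's exact test of the model's reads against the gene's other reads, adjusted over 7320 annotated spliced models). Over all models tested 2.06% were called, 0.628% with the larger share in replicate 1 and 1.43% with it in replicate 2. Cox4i1-204 made up 203 of 2526 reads of its gene in replicate 1 and 36 of 2667 in replicate 2, which is 8.04% and 1.35% (adjusted p = 2.0e-29). Cox4i1 encodes subunit 4 of cytochrome c oxidase. The model has 3 exons, chr8:120672590-120672892, chr8:120673221-120673352 and chr8:120673971-120674113 (plus strand). Its first exon begins inside an intron of the leading transcript, the 745-base Cox4i1-201, whose matching exon is chr8:120672725-120672892. Its last exon stops short of that transcript's end at 120674207. Both introns of Cox4i1-204 are also introns of Cox4i1-201, so only its ends separate it from a read of Cox4i1-201 that lacks the first exons. Whether such reads were counted on Cox4i1-204 was not tested. Cox4i1-201 had 2204 reads in replicate 1 and 2489 in replicate 2. In level, Cox4i1-204 was 5.79-fold higher in replicate 1 (log2 ratio 2.49, adjusted p = 9.5e-28, Fisher's exact test), and edgeR's exact test gave an adjusted p of 2.9e-07.

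Uqcr10-203 held 39 of 481 reads of its gene in replicate 1 and 12 of 437 in replicate 2, or 8.11% and 2.75% (adjusted p = 0.024, Fisher's exact test). Uqcr10 encodes a small subunit of complex III, and this model carries an exon of 86 bases, chr11:4703904-4703989 (minus strand), that the leading Uqcr10-201 lacks. Uqcr10-201 had 436 and 416 reads. Timm10b-211 held 10 of 72 reads of its gene in replicate 1 and 0 of 75 in replicate 2 (adjusted p = 0.030, Fisher's exact test), on the same strand as the overlapping Gm45799, with which it shares 54.7% of its words. With the gene's annotated models alone as the total, Cox4i1-204 was the 1 short model still called.

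Counted over all roles, 19 of 347 short models with at least 10 reads differed in level between the libraries, or 5.48%, against a background of 5.34% over all annotated models tested, and 52 had an unadjusted p under 0.05. The share called was near the background. Of the 19, 15 were higher in replicate 1 and 4 in replicate 2, while 133 and 389 of the 9781 models were. The median log2 ratio was 0.04 for the short models and -0.13 for the other spliced ones. edgeR's exact test called 3 short models, Cox8b-201, 2900040C04Rik-201 and Cox4i1-204, all higher in replicate 1. Its background was 0.225%, 0.194% with the higher level in replicate 1 and 0.0307% with it in replicate 2. With TMM library sizes 28 were called, 27 of them higher in replicate 1 and 1 in replicate 2, or 8.07% of the 347. Over all models tested with these sizes 4.59% were called, 253 with the higher level in replicate 1 and 196 with it in replicate 2, so that the balance of directions over all models turned with the scaling.

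**Figure D4:**
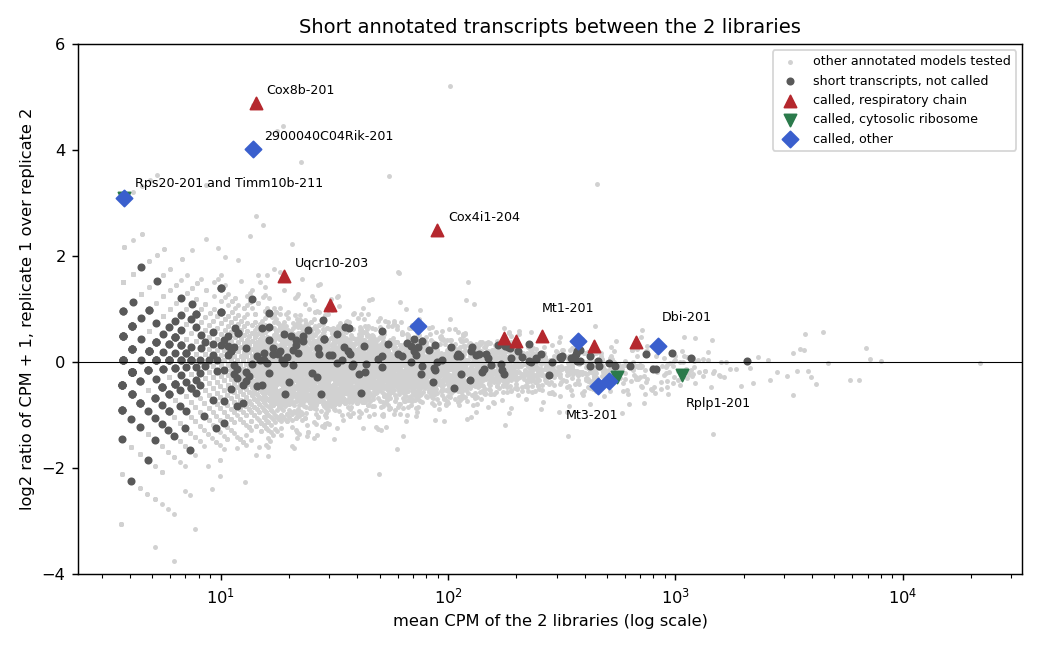
Log2 ratio of CPM + 1, replicate 1 over replicate 2, against mean CPM (log axis) for short transcripts (dark) and other annotated models tested (light grey). Triangles pointing up mark called respiratory members, triangles pointing down called ribosomal members and diamonds other called members, and 15 of the 19 called lie above 0.

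The ratio between the libraries changed with transcript length. Relative to all reads, short transcripts had a log2 ratio of 0.06 (0.04 to 0.08, p = 1.1e-10, two-sided Fisher's exact test of the reads of the 2 libraries). The ratio was 0.06 (0.04 to 0.08) for annotated spliced models of 500 to under 600 bases and 0.03 (0.0033 to 0.063) for 600 to under 700 bases. It was -0.028 (-0.041 to -0.015) for 700 to under 1000 bases and -0.013 (-0.020 to -0.0056) for 1000 to under 2000 bases. For 2000 to under 4000 bases it was -0.25 (-0.26 to -0.24), and for 4000 bases or more -0.17 (-0.19 to -0.16). The ratio thus did not fall in strict order of length. Of the reads on annotated spliced models alone, short ones took 5.42% in replicate 1 and 4.83% in replicate 2. Below 300 bases reads were few. Models of 200 to under 300 bases had 80 reads in replicate 1 and 99 in replicate 2, with a log2 ratio of -0.27 (-0.71 to 0.17), and those under 200 bases had 16 and 7 reads. The part of this pattern with length in the single-gene differences was not tested.

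**Figure D5:**
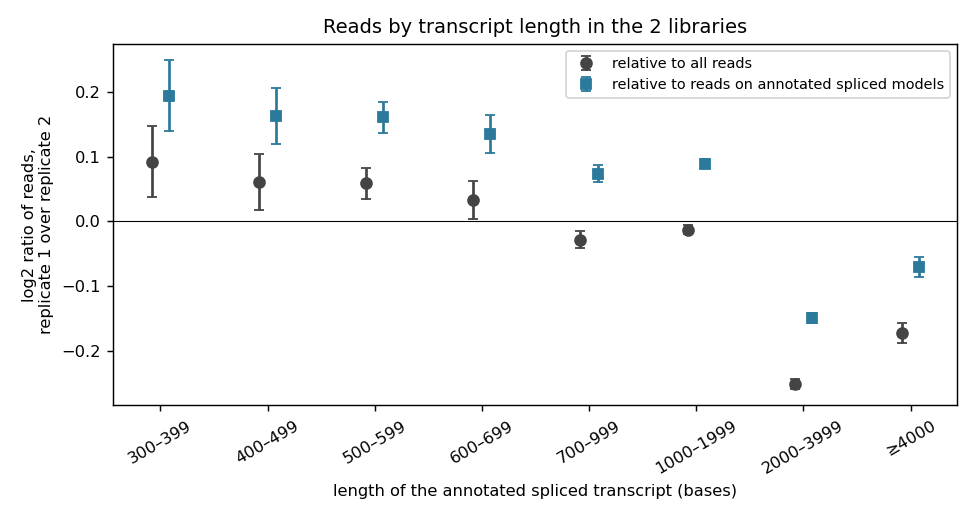
Log2 ratio of reads, replicate 1 over replicate 2, by length of the annotated spliced transcript, relative to all reads (circles) and to reads on annotated spliced models (squares), with 95% counting intervals. Classes from 300 bases are drawn, and those of 300 to under 700 bases lie above 0 on both scales while those of 2000 bases or more lie below it.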

How the data were processed

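The deposited tables hold, for 2 libraries, the authors' unnormalized count of reads on every transcript model, with each model's class, exon number and length. Per the file headers models were made with TALON, and per the description files GENCODE M21 on mm10 was the annotation. Aligner, filters and strand setting were not given in the sources used here. Replicates 1 and 2 were mapped from the labels.

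CPM used all reads of a library. Annotated models with at least 10 reads over both libraries were compared by Fisher's exact test (scipy 1.17.1) with Benjamini-Hochberg adjustment at 0.05, after a test on simulated data. edgeR 4.0.16 gave TMM sizes and an exact test with the common dispersion of the 2 libraries, a coefficient of variation of 15.9%, which real differences raise. DESeq2 1.42.0 size factors were an alternative. With 1 sample a side, edgeR's quasi-likelihood test has no residual degrees of freedom. Log2 ratios use a pseudocount of 1 CPM, floors are 3 reads, and both floors and intervals reflect counting alone, since reads without molecular identifiers are not independent molecules.

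The short transcripts and the 17 role lists were chosen with earlier results of these data known, and the sequences and motifs after the values. Named models were the 25 of highest mean CPM, the 3 highest of each list, the 10 most different in each direction among those called, the 5 with most reads of each noncoding biotype, and 5 minor forms of abundant genes. Other models were named after their values were seen. The result of 1 list and 1 model under the rule are not reported here.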

Additional observations from a re-analysis of the deposited data

How the results depend on the processing

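No paired analysis was possible because the labels give 1 group of 2 libraries. The share of reads on short transcripts, 3.09%, was 5.13% of reads on annotated spliced models, 3.23% without mitochondrial genes, 1.04% and 4.43% with limits of 500 and 700 bases, 2.01% without ribosomal proteins and 2.12% without the 10 most abundant; single libraries gave 3.03% to 3.16%. The 19 calls became 3 with edgeR's exact test and lay between 14 and 28 otherwise, with 16 of the 19 shared with TMM and with DESeq2 sizes. The 9 respiratory calls higher in replicate 1 became 16 with TMM sizes, 16 with DESeq2 sizes, 15 with annotated spliced reads as the total and 2 with edgeR's exact test. Of 112 pairs of a called model and a setting, 83 kept the call, 29 lost it (16 of them under edgeR's exact test) and 0 reversed. The 3 share differences became 1 with annotated models alone. The 114 leading short transcripts were 115 and 117 from single libraries and 87 to 133 otherwise. The causes were not tested. Depth limits the rest: 1444 of 1791 models had under 10 reads and were not tested.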
